A study of Drosophila melanogaster with 12 samples.

Results

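The 70 genes described here were known by a CG number alone in the deposited annotation, a serial number given to a gene predicted from the genome sequence, and they were higher in young than in old type II neuroblasts. They were chosen from the deposited read counts by 3 conditions on CPM, the counts per 1000000 gene counts of a library. The mean at 24 h after larval hatching was at least 10 CPM, it was at least 2 times the mean at 84 h, and every 24 h library lay above every 84 h library. Of 15340 gene symbols 7807 were CG numbers, 1686 of these reached 10 CPM at 24 h, and 70 met all conditions. Since the 24 h and 84 h values chose these genes, their difference between those ages is a description and was not tested. The 36 h and 50 h libraries took no part in the choice, and 50 h against 36 h is the comparison that was tested.

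Type II neuroblasts are neural stem cells of the larval fly brain that renew themselves and produce intermediate neural progenitors, which divide again before they give rise to neurons and glia. As a larva grows, neuroblasts pass through a temporal sequence in which the RNA-binding protein Imp is high early and the RNA-binding protein Syp late, and the age of the stem cell bears on which kinds of neuron are made.

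The cells were GFP-labelled type II neuroblasts sorted from the central nervous system of Drosophila melanogaster larvae at 24, 36, 50 and 84 h after hatching, with 3 libraries per age and 12 in all. Larvae were kept at 25 °C, 30 brains were dissected, and each library came from 93 to 132 pooled cells whose RNA was amplified before sequencing, with ERCC spike-in RNA of one mix and dose. All ages share this label, and its driver, the strain and the sex of the larvae are not stated in the labels. Nor do they tell whether same-age libraries stem from different dissections, and the p-values therefore reflect the spread among these libraries, which may be technical.

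Libraries held 4512102 to 8391731 gene counts, and a floor of 3 counts stood at 0.357 to 0.665 CPM, for counting error only. The 8 neuroblast markers dpn, mira, wor, pnt, klu, btd, grh and insc were all detected and summed to 2462 to 4004 CPM in the 12 libraries. The type I marker ase had means of 3.65 to 7.29 CPM. The list of 5 intermediate progenitor markers summed to 305 to 340 CPM in the 24 h libraries and 119 to 238 in the 84 h ones. Nearly all of this was tll, with means of 316 CPM at 24 h and 178 at 84 h. The means of erm, opa and ham were at most 1.04, 1.50 and 0.93 CPM. The sum therefore follows tll alone and was not taken as a measure of progenitors. Of 9 neuron markers 7 were matched, and their sum ran from 321 to 371 CPM at 24 h, from 279 to 402 at 36 h, from 375 to 402 at 50 h and from 351 to 566 at 84 h. Most of it came from elav and fne, while Gad1 had a mean of at most 0.694 CPM. Between 36 and 50 h the mean of brp went from 2.06 to 13.7 CPM and that of Syt1 from 1.18 to 4.22, with overlapping libraries. For brp the 36 h libraries ran from 0.214 to 3.62 CPM and the 50 h ones from 3.10 to 26. For Syt1 they ran from 0 to 2.67 and from 0 to 9.71. The means of elav, Rdl and Gad1 also rose at this step, while those of fne (156 to 147 CPM) and VGlut (0.59 to 0.42) fell. The 7 glia markers summed to 327 to 497 CPM (24 h), 469 to 658 (36 h), 535 to 607 (50 h) and 369 to 511 (84 h), almost all from nrv2 and Eaat1, with repo at a mean of at most 1.63 CPM. The muscle list summed to at most 9.16 CPM and the hemocyte and fat body list to at most 6.76. The part of such cells in the results was not tested.

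The rule found 4.15% of the CG-numbered symbols that reached 10 CPM at 24 h, and it found 133 of 2934 named symbols, or 4.53%. The number of members depends on the scaling. It was 144 when CPM was computed with TMM-adjusted library sizes (trimmed mean of M values, an adjustment for a few abundant RNAs), and these included all 70. It was 122 on the authors' TPM, with 64 of the 70 among them, and 9 when counts were scaled to the ERCC totals. In bulk RNA, fewer cells that express a gene and less of its RNA per cell cannot be told apart. Just inside the fold threshold lay CG9821 at a ratio of 2.00, CG42668 at 2.03 and CG15098 at 2.05, and just outside lay CG34220 at 1.96, CG33144 at 1.95 and CG17018 at 1.95. Just inside the level threshold lay CG43737, CG3548 and CG6865, with means of 10.4, 10.9 and 11.4 CPM at 24 h. Just outside lay CG40178, CG44206 and CG1572, with 9.53, 9.02 and 8.70 CPM.

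The members together took 1.44% ± 0.040 of all gene counts in the 24 h libraries (mean ± SD over 3 libraries, as in all later pairs), 1.10% ± 0.026 in the 36 h, 0.685% ± 0.013 in the 50 h and 0.561% ± 0.069 in the 84 h libraries. CG9821 made up a large part of this, and without it the shares were 0.903%, 0.698%, 0.403% and 0.293%. The median member stood at 37.9 CPM at 24 h. At that age 17 members had at least 100 CPM, 34 had 20 to 100 and 19 had less than 20. The median ratio of 24 h to 84 h was 2.67. It was at least 3 for 27 members, at least 5 for 13 and at least 10 for 7. The median member kept 75% of its 24 h level at 36 h, 44.6% at 50 h and 37.5% at 84 h. The map of all members by library shows that they did not all fall at the same step.

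**Figure D1:**
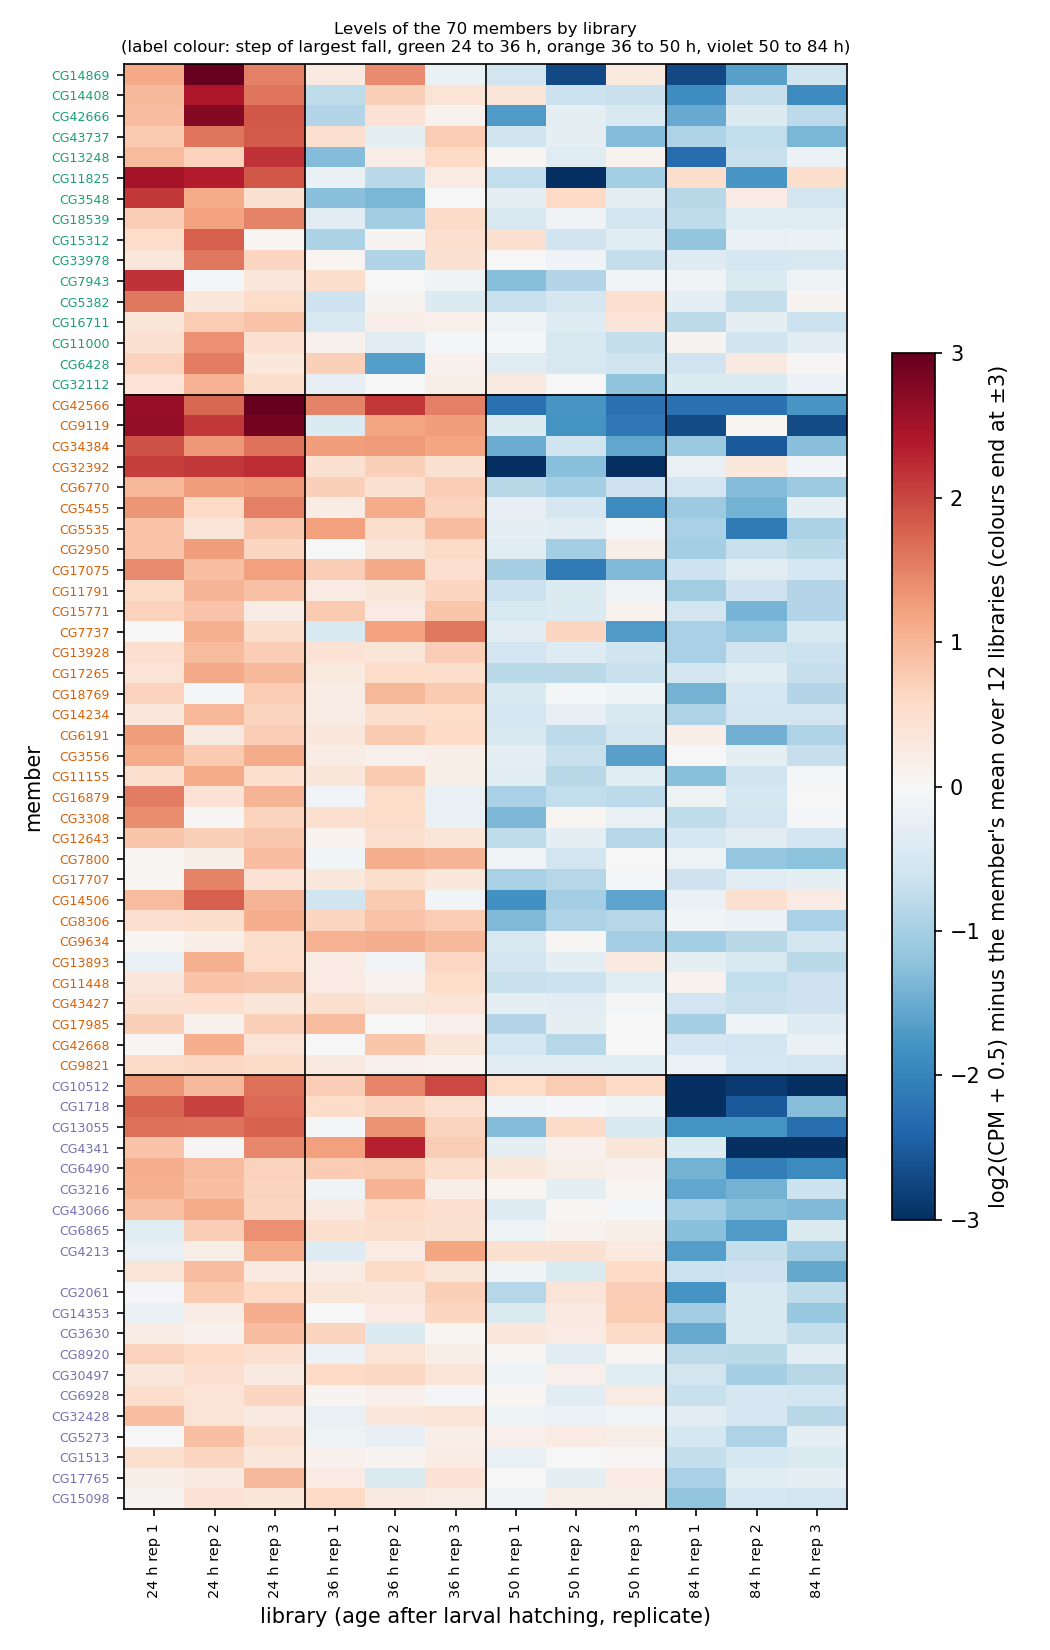
Levels of the 70 members (rows) in the 12 libraries (columns), as log2(CPM + 0.5) minus the mean of each member over all libraries, with red above and blue below that mean. Members are ordered by the step with the largest fall, 16 between 24 and 36 h, 33 between 36 and 50 h and 21 between 50 and 84 h, and the change from red to blue moves to the right from the top block to the bottom one.

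Of the 70 members, 27 carry a current name or a telling synonym in later reference tables and 43 carry neither. The first group of these holds genes of the cell surface, of cell junctions and of secreted or membrane-bound proteases. Ccdc85 was placed with them, though its entry gives no more than a coiled-coil protein. The gene plum (CG6490), for an immunoglobulin-superfamily membrane protein known from the pruning of mushroom body axons, had 1114, 994 and 849 CPM in the 24 h libraries, 895, 909 and 753 in those of 36 h, 649.6, 598 and 576 in those of 50 h and 196, 124 and 140.4 in those of 84 h. The 24 h and 36 h libraries overlapped, and the 84 h libraries stood far below all others. The gene smash (CG43427), for a LIM-domain protein of adherens junctions, had 181, 187 and 169 CPM in the 24 h libraries, 183, 167 and 176 in those of 36 h, 107, 104 and 126 in those of 50 h and 88.8, 82.3 and 86 in those of 84 h. Its first 2 ages overlapped and both lay above the later 2. Ccdc85 (CG17265), for a coiled-coil protein, had 149 ± 37.1 CPM (24 h), 112 ± 10.8 (36 h), 47.7 ± 2.83 (50 h) and 55.7 ± 6.51 (84 h).

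The other members of this group have names from proteases. The gene goe (CG9634), placed with the neprilysin-like metallopeptidases, had 22, 24.4 and 30.9 CPM in the 24 h libraries, 44.1, 45.6 and 42 in those of 36 h, 14.9, 21.6 and 10.2 in those of 50 h and 10.2, 11.6 and 14.2 in those of 84 h. Its 36 h libraries lay above those of every other age. AdamTS-A (CG14869), for a secreted metalloprotease, had 6.67, 45.1 and 8.79 CPM in the 24 h libraries, 3.43, 8.19 and 2.36 in those of 36 h, 1.73, 0 and 3.55 in those of 50 h and 0, 0.562 and 1.65 in those of 84 h. Its 24 h mean rests largely on replicate 2. CG6865, with the serine protease synonym SP63, had 11.4 ± 6.39 CPM (24 h) and 2.97 ± 1.59 CPM (84 h).

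A group of 5 members is tied to transport or lipids. CG43066, listed with the solute carrier synonym Slc6a20, had 973, 1144 and 835 CPM in the 24 h libraries, 646, 811 and 758 in those of 36 h, 408, 544 and 519 in those of 50 h and 262, 220.5 and 211 in those of 84 h. No neighbouring ages overlapped. Abca3 (CG1718), for an ABC transporter, had 30.9, 37.2 and 29.8 CPM in the 24 h libraries, 13.2, 14.2 and 12.6 in those of 36 h, 8.33, 8.61 and 7.98 in those of 50 h and 0.528, 1.12 and 3.3 in those of 84 h. These ages did not overlap either. The exons of Abca3 overlap those of the opposite-strand gene CG1494. Reads in the shared stretch may not have been told apart, as the strand setting is not stated. MCU (CG18769), for the pore of the mitochondrial calcium uniporter, had 103 ± 28.2 CPM (24 h), 118 ± 30.4 (36 h), 63.3 ± 9.73 (50 h) and 38.9 ± 11.8 (84 h). Orp8 (CG42668), for a lipid transfer protein related to the oxysterol-binding protein, had 32 ± 12.5 CPM (24 h) and 15.8 ± 2.26 CPM (84 h), and CG13248, with the cationic amino acid transporter synonym CAT-4, had 13 ± 7.93 CPM (24 h) and 2.36 ± 1.71 CPM (84 h).

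Signalling and membrane traffic supplied 6 members, 5 of which are described. CG34384, whose synonyms make it a diacylglycerol kinase, an enzyme that turns the lipid messenger diacylglycerol into phosphatidic acid, had 132, 86.8 and 108 CPM in the 24 h libraries, 82.8, 84.6 and 78.8 in those of 36 h, 12, 22.7 and 11.5 in those of 50 h and 15.9, 5.62 and 14.2 in those of 84 h. The early pair of ages and the late pair were well apart. Rilpl (CG11448), for a relative of the Rab-interacting lysosomal protein, had 110.0 ± 20.4 CPM (24 h), 83.9 ± 13.8 (36 h), 46.2 ± 5.91 (50 h) and 52.5 ± 18 (84 h). Pef (CG17765), for a penta-EF-hand calcium-binding protein, had 102 ± 32.2 CPM (24 h) and 49.6 ± 12.4 CPM (84 h). The guanylyl cyclase synonym belongs to CG3216, with 15.8 ± 2.26 CPM (24 h) and 3.48 ± 1.46 CPM (84 h), and the Golgi protein synonym ZFPL1 to CG5382, with 11.5 ± 5.93 CPM (24 h) and 4.77 ± 1.41 CPM (84 h).

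Among the 3 genes that act on RNA, mxt (CG2950), for a translation factor that binds eIF4E, had 46.4 ± 10.4 CPM (24 h), 30.3 ± 6 (36 h), 19 ± 7.76 (50 h) and 13.2 ± 1.69 (84 h). The gene tapas (CG8920), for a Tudor-domain protein of the germline piRNA pathway, had 46.3 ± 3.34 CPM (24 h), 33.9 ± 6.83 (36 h), 29.1 ± 4.47 (50 h) and 19.6 ± 4.09 (84 h). The gene prage (CG42666), with the RNA exonuclease synonym REXO1, had 7.86, 29.3 and 15.5 CPM in the 24 h libraries, 1.91, 5.46 and 4.28 in those of 36 h, 0.867, 3.15 and 2.66 in those of 50 h and 1.06, 2.81 and 2.06 in those of 84 h. Its later libraries all lay below those of 24 h, and its exons overlap those of Adar on the same strand in the later annotation, so the counting may have split or dropped their shared reads.

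A pair of members bear the names of cilium parts. Rsph3 (CG32392), for a radial spoke protein of motile cilia, had 87, 90.7 and 96.4 CPM in the 24 h libraries, 28, 33.9 and 28.3 in those of 36 h, 1.04, 8.19 and 1.99 in those of 50 h and 17.4, 25.3 and 19.2 in those of 84 h. Its 50 h libraries lay below those of every other age. Wdr92 (CG14353), for a dynein assembly factor, had 13.1 ± 6.52 CPM (24 h), 11.7 ± 2.77 (36 h), 11.4 ± 4.71 (50 h) and 4.9 ± 1.45 (84 h).

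CG9821, now aqz, had the highest CPM of all members, with 5306, 5496 and 5302 CPM in the 24 h libraries, 4294, 3925 and 3865 in those of 36 h, 2859.6, 2806 and 2795 in those of 50 h and 3175, 2480.3 and 2393 in those of 84 h. The first 3 ages did not overlap, and the 84 h libraries lay around the 50 h level. Its exons overlap those of CG9837 on the same strand. Per length, in the authors' TPM (a transcript share that takes gene length into account), CG6770 stood above it, with a mean of 2813 TPM at 24 h against 2354 for CG9821 and 1525 for CG16879. CG6770, with the synonym p8, had 677, 813 and 836 CPM in the 24 h libraries, 561, 472 and 571 in those of 36 h, 189.9, 167 and 220.3 in those of 50 h and 228, 139 and 159.8 in those of 84 h. The late pair of ages lay far below the early pair. CG11825, with a synonym from the HIG1 family of small mitochondrial membrane proteins, had 49.5 ± 11 CPM (24 h), 8.61 ± 3.16 (36 h), 3.6 ± 2.81 (50 h) and 10.6 ± 6.93 (84 h).

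Means at 36 h exceeded those at 24 h for 12 members, goe and MCU among them. By the ratio of the 36 h to the 24 h mean, the highest 6 were these 2 and the following 4. Tmtc2 (CG4341, for a protein of the TMTC mannosyltransferase family) had 13.2 ± 6.26 CPM (24 h), 21.8 ± 13.3 (36 h), 7.4 ± 1.77 (50 h) and 1.9 ± 2.78 (84 h). CG7737, with the polyamine oxidase synonym PAOX, had 17.2 ± 6.4 CPM (24 h), 23.1 ± 13.7 (36 h), 9.93 ± 7.43 (50 h) and 6.06 ± 1.76 (84 h), CG7800 had 17.5 ± 6.3 CPM (24 h), 22 ± 8.68 (36 h), 11.1 ± 2.36 (50 h) and 7.35 ± 3.56 (84 h) and CG5535 had 83.5 ± 14.8 CPM (24 h), 98.4 ± 23.2 (36 h), 44.3 ± 4.41 (50 h) and 21.2 ± 8.5 (84 h). In these 4 the 24 h and 36 h libraries overlapped, unlike those of goe.

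**Figure D2:**
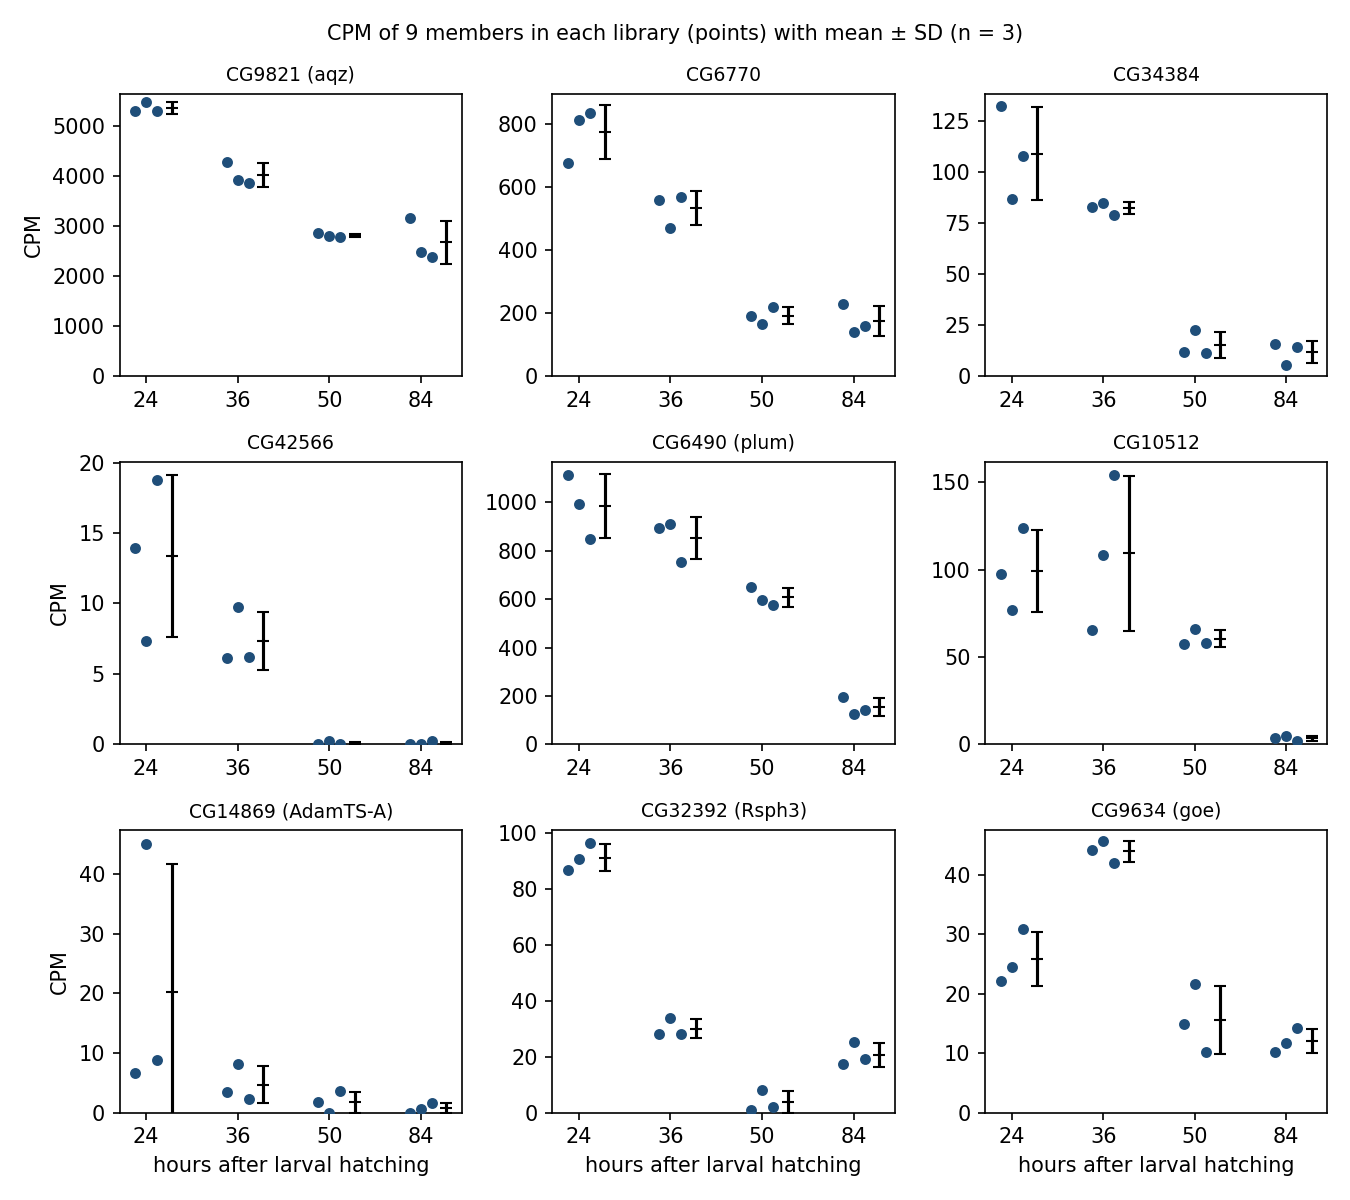
CPM in each library (points) for 9 members at the 4 ages, with mean ± SD beside them (n = 3, bars end at the axis where the SD exceeds the mean). CG6770, CG34384 and CG42566 drop between 36 and 50 h, plum (CG6490) and CG10512 between 50 and 84 h, Rsph3 (CG32392) is lowest at 50 h, goe (CG9634) is highest at 36 h, and the 24 h mean of AdamTS-A (CG14869) rests on the library at 45.1 CPM.

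Of the 43 members with neither name nor telling synonym, CG10512 had the largest ratio of 24 h to 84 h among those with counts in every library, 28. It had 97.4, 77 and 124 CPM in the 24 h libraries, 65.6, 108 and 154 in those of 36 h, 57.2, 65.9 and 58.3 in those of 50 h and 3.7, 4.87 and 2.06 in those of 84 h. The 84 h libraries stood far below all others, and the first 2 ages overlapped. CG42566 had 13.9, 7.37 and 18.8 CPM in the 24 h libraries, 6.1, 9.75 and 6.21 in those of 36 h, 0, 0.21 and 0 in those of 50 h and 0, 0 and 0.206 in those of 84 h. It had 1 count in all at 50 h and 1 at 84 h, which puts the ratio of 36 h to 50 h at 111 (exact 95% interval 19.5 to 4424) and that of 24 h to 84 h at 201 (35.7 to 7955), for counting error only.

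CG13055 had 71.4 ± 3.17 CPM (24 h), 37.5 ± 17.8 (36 h), 19 ± 12.4 (50 h) and 5.37 ± 1.08 (84 h), CG9119 had 18.6 ± 4.78 CPM (24 h), 5.27 ± 2.91 (36 h), 0.85 ± 0.922 (50 h) and 0.937 ± 1.62 (84 h) and CG14408 had 16.7 ± 8.65 CPM (24 h), 5.5 ± 2.73 (36 h), 3.82 ± 1.95 (50 h) and 1.44 ± 1.02 (84 h). In each of them the 84 h libraries were low in all 3. For CG9119 the 84 h counts were 0, 15 and 0, so its 84 h mean rests on replicate 2. CG16879, which the tables list as a synonym of CG46301, had 1834, 856 and 1281 CPM in the 24 h libraries, 596, 929.6 and 543 in those of 36 h, 325, 379.7 and 368 in those of 50 h and 568, 439 and 632 in those of 84 h, with the 24 h libraries far apart from one another. CG30497, listed as a synonym of CG46385, had 578 ± 49.7 CPM (24 h), 644 ± 57.4 (36 h), 416 ± 75.5 (50 h) and 258 ± 42.6 (84 h).

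By the step with the largest fall of log2(mean CPM + 0.5), 16 members fell most between 24 and 36 h, 33 between 36 and 50 h and 21 between 50 and 84 h. The means fell at every step for 37 members. The highest mean was at 24 h for 58 members and at 36 h for 12, and the lowest at 84 h for 51, at 50 h for 17 and at 36 h for 2. Among the 133 named symbols that met the same rule these steps held 22, 48 and 63 genes. Imp had means of 50340.4, 33037, 7585 and 259 CPM at the 4 ages, and lin-28, for an RNA-binding protein of developmental timing, 130.3, 91.6, 2.1 and 0.695.

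**Figure D3:**
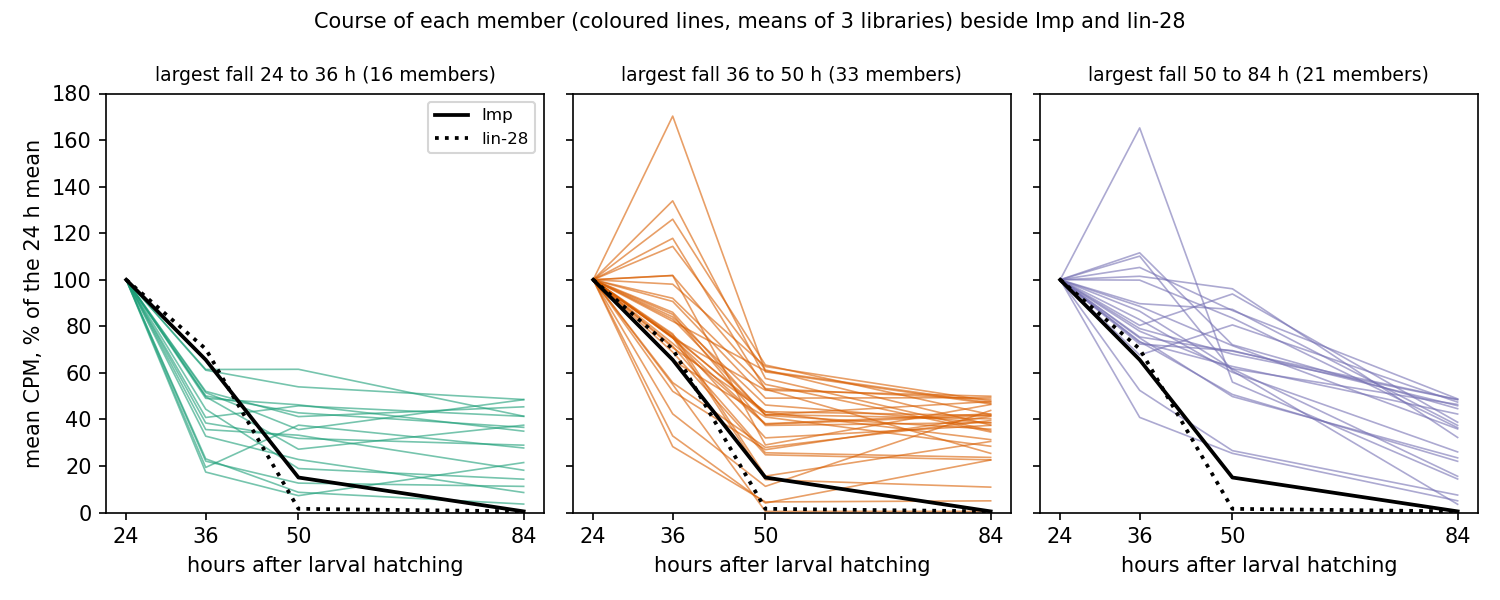
Mean CPM of each member in percent of its 24 h mean (coloured lines, 3 libraries per point) against hours after larval hatching, split by the step of the largest fall, with Imp (solid black) and lin-28 (dotted black) repeated in each panel. The panels were set by falls on the log2 scale, so the largest drop in percent can lie at an earlier step, as for Abca3 in the right panel and Rsph3 in the middle one, and the highest points at 36 h are goe in the middle panel and Tmtc2 in the right one.

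The comparison of 50 h with 36 h asked whether the members also moved between the ages that did not choose them. Differences were tested with edgeR's quasi-likelihood test on all 12 libraries, with Benjamini-Hochberg adjustment over all 7978 genes tested and a threshold of 0.05. All 70 members passed the filter on low counts, which their 24 h level alone could bring about. Of the 70, 23 fell and 0 rose, that is 32.9%, while of all genes tested 2.37% were called lower (189), 1.88% higher (150) and 4.25% either way (339). Among genes with at least 10 CPM at 24 h 3.96% were called lower and 2.37% higher. Among the other CG-numbered genes at that level 2.04% were called lower and 1.24% higher, and among all other CG-numbered genes tested, low ones included, 1% each way. Among the named symbols that met the same rule 54 of 133, or 40.6%, were called lower. At an unadjusted p under 0.05, 44 members were lower and 0 higher, against 8.84% and 8.55% of all genes. DESeq2 called 28 lower and 0 higher, against 3.35% lower and 3.02% higher among the genes it gave an adjusted p. On the authors' TPM, limma called 12 lower and 0 higher, against 0.73% lower and 1.85% higher. The median log2 fold change (log2FC) was -0.97 for the members and 0.03 for all genes, and 67 of 70 members lay below 0. A gene chosen for a fall from 24 to 84 h has to fall at some step, so the direction follows in part from the choice. The 36 h libraries lay above the 50 h libraries without overlap for 34 members (48.6%, against 8.89% of all symbols with at least 10 CPM at 24 h), and the 50 h libraries above the 36 h ones for 0 (against 19.7%).

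The scaling bears on the direction. With ERCC totals 1 member was called lower, CG42566, and 0 higher, against 0.0501% and 1.8% of all genes. The median log2FC of the members was then 0.021 in the fit, with 33 of 70 below 0, and -0.080 as a difference of mean log2 values, with 38 below 0, so that its sign is not settled under that scaling. The median of all genes moved up by 0.88 (mean log2 values, 50 h over 36 h), against 0.20 for CPM over gene totals and 0.03 for TMM. Gene counts per ERCC count were 832 in 50 h replicate 1 and 289 and 253 in the other 50 h libraries. The 36 h libraries had 224 to 252. ERCC totals were not fitted without 50 h replicate 1, so how far the ERCC values rest on that library was not tested. Relative to the median of all genes the median member was at -0.96 with ERCC totals, -0.95 with CPM and -0.96 with TMM, and 67 of 70 members lay below that median each time. The folds given here are from the TMM fit and are relative to most other genes in this sense. They therefore differ from the ratios of the CPM means printed beside them.

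CG6770 fell 3.16-fold (log2FC -1.66 ± 0.20 SE, edgeR adjusted p = 2.02e-05), and CG13928 fell 2.31-fold (adjusted p = 5.67e-05), from 530.0 ± 74.9 to 257 ± 22.1 CPM. The diacylglycerol kinase gene CG34384 fell 6-fold (-2.59 ± 0.35, adjusted p = 0.000101), Ccdc85 2.65-fold (-1.41 ± 0.20, adjusted p = 0.000104) and Rsph3 9.1-fold (-3.19 ± 0.44, adjusted p = 0.000132). CG17075 went from 38.9 ± 8.89 to 7.93 ± 3.1 CPM (5.62-fold, adjusted p = 6.06e-05). CG8306 had 37.2 ± 9.4 CPM at 24 h and 37.9 ± 2.73 at 36 h and fell 3.98-fold to 10.8 ± 1.87 (adjusted p = 0.000478). CG11791 fell 1.97-fold (adjusted p = 0.0015), from 152 ± 22.7 to 86.5 ± 16.2 CPM, and goe 3.16-fold (adjusted p = 0.00295). The call of CG42566 had an adjusted p of 0.000222, and its size is the count ratio given above. These 10, with CG14234 (2.04-fold, adjusted p = 0.00392), CG12643 (2.15-fold, adjusted p = 0.00394) and smash (1.78-fold, adjusted p = 0.00555), are the 13 members whose calls held when any one of the 12 libraries was left out. With ERCC totals all of the 13 but CG42566 lost the call, and with limma on the TPM smash did (0.0922).

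The other 10 calls each ended without at least 1 library, and all 10 with ERCC totals and on the TPM. MCU fell 2.1-fold (adjusted p = 0.0091) but was not called without library 2 of 36 h (0.0949) or library 1 of 50 h (0.0658), with the adjusted p in parentheses, as for the later members. Rilpl fell 2.04-fold (adjusted p = 0.0134) and lost the call without library 1 of 36 h (0.0515) or library 1 of 50 h (0.0751). CG5535 fell 2.54-fold (adjusted p = 0.00595), a call that ended without library 1 of 36 h (0.0555). CG5455 fell 3.09-fold (adjusted p = 0.0228), a call that ended without library 2 of 36 h (0.153) or library 3 of 50 h (0.107). CG43066 fell 1.7-fold (adjusted p = 0.021), and its call was gone without library 2 of 36 h (0.127), library 1 of 50 h (0.131) or library 3 of 50 h (0.0749).

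CG9821 fell 1.63-fold (adjusted p = 0.0223) but was not called without library 1 of 36 h (0.117), library 2 of 36 h (0.0828), library 1 of 50 h (0.083), library 2 of 50 h (0.0537) or library 3 of 50 h (0.0966). CG30497 fell 1.76-fold (adjusted p = 0.0234) and lost the call without library 1 of 36 h (0.109), library 2 of 36 h (0.107), library 1 of 50 h (0.0961) or library 3 of 50 h (0.133). CG15771 fell 2.1-fold (adjusted p = 0.026), a call that ended without library 1 of 36 h (0.131), library 3 of 36 h (0.0661), library 1 of 50 h (0.127) or library 2 of 50 h (0.0906). CG10512 fell 1.98-fold (adjusted p = 0.0183) with 36 h and 50 h libraries that overlapped, unlike the other 22 called members, and its call ended without library 2 of 36 h (0.0832), library 3 of 36 h (0.122), library 1 of 50 h (0.0854) or library 3 of 50 h (0.0876), and with sorted cells as a covariate (0.0812). CG16879 fell 2.21-fold (adjusted p = 0.0314), a call gone without library 3 of 24 h (0.077), library 1 of 36 h (0.0568), library 2 of 36 h (0.12), library 1 of 50 h (0.116), library 2 of 50 h (0.0689), library 3 of 50 h (0.101) or library 1 of 84 h (0.0774), with the replicate number as a block (0.116) and with sorted cells as a covariate (0.0577).

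By group, 3 of 6 members were called lower in the surface, junction and protease group, with Ccdc85 among the 3. In transport and lipids 2 of 5 were called, in signalling and traffic 2 of 6 and among genes acting on RNA 0 of 3. With cilium names it was 1 of 2, among the other 5 with an entry 2, and among the 43 without 13. Over all members the share was 32.9%, and over all genes tested 2.37%. Groups of 2 to 6 genes are too small to be told apart from the share of all members. For the RNA genes edgeR, DESeq2 and limma on the TPM each called 0, and 1 had an unadjusted p under 0.05 in edgeR.

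**Figure D4:**
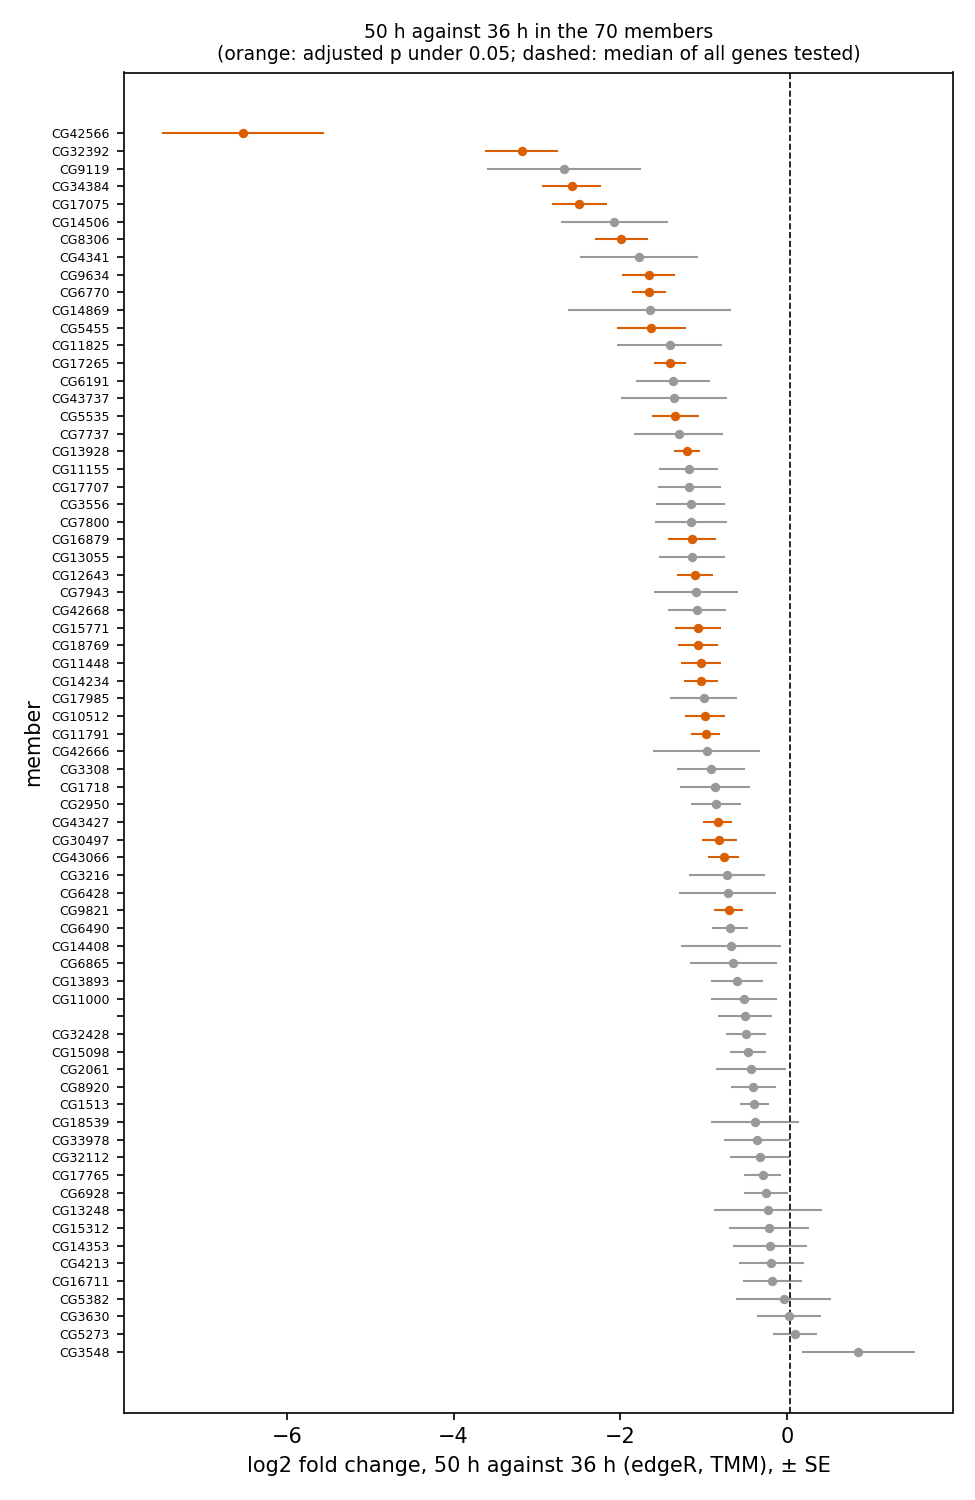
Log2 fold change of each member at 50 h against 36 h from the edgeR fit with TMM scaling, with its SE as bars, ordered by size. Orange points are the 23 members with an adjusted p under 0.05, all to the left of the dashed line at the median of all genes (0.03), and 3 members lie above 0.

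Of the 47 members that were not called, 21 were lower with an unadjusted p under 0.05 in edgeR. Of all genes tested 8.84% were lower at that level, and the direction of the members follows in part from their choice. The gene plum was 1.6-fold lower at 50 h (log2FC -0.68 ± 0.21 SE, edgeR adjusted p = 0.0758), with 36 h libraries that all lay above those of 50 h. CG6191 had 495, 673 and 592 CPM in the 36 h libraries and 281, 227 and 266 in the 50 h ones, with no overlap. It was not called in the edgeR fit over all ages (adjusted p = 0.139) but was when the 36 h and 50 h libraries alone were fitted (adjusted p = 3.84e-06). Its 938, 475 and 654 CPM at 24 h and 449, 145 and 206 at 84 h were more widely spread, and its exons overlap those of CG45088 on the same strand. In that fit of 2 ages 29 of the 69 members it held were called lower, the 23 among them, against 4.18% of all genes lower and 3.74% higher. The 3 members above 0 were CG3548 (log2FC 0.85 ± 0.68), CG5273 (0.09 ± 0.27) and CG3630 (0.02 ± 0.38), with edgeR adjusted p of 0.588, 0.914 and 0.99.

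The steps on either side share libraries with the rule and are described only. Between 24 and 36 h the members had a median log2FC of -0.54 in the same fit (-0.009 for all genes), with 63 of 70 below 0. Between 50 and 84 h their median was -0.51 (-0.013 for all genes), with 55 below 0. Mean CPM was higher at 84 h than at 50 h for 17 members. Examples chosen after their values were seen are Rsph3 and CG16879, described above, CG14506 with 1.29 ± 0.534 CPM at 50 h and 5.01 ± 1.25 at 84 h, and CG17075 with 15.5 ± 1.8 CPM at 84 h. In these 4 every 84 h library lay above every 50 h library.

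Gene structure was not used by the rule. In the later BDGP6 annotation, used for names and structure only because the submitters name earlier builds, all 70 were matched, 68 by locus tag and 2 by synonym. Their median exonic length was 3058 bases and their median intron length 1734, against 2419 and 426.5 for the 1612 matched of 1616 other CG-numbered genes tested with at least 10 CPM at 24 h. CPM is not divided by length, and no test was made of this difference. Of the members 17 lie on the X (24.3%, against 18.4% of those others), 7 on 2L (10% against 17.1%), 15 on 2R (21.4% against 18.5%), 15 on 3L (21.4% against 20.8%), 14 on 3R (20% against 24.3%) and 2 on chromosome 4 (2.86% against 0.81%). A single pair of members are next to each other among protein-coding genes, CG5455 and plum on 3R. CG5455 went from 31.2 ± 9.53 to 11.2 ± 5.83 CPM between 36 and 50 h, while the largest fall of plum came after 50 h. Exons of 22 members (31.4%, against 37.6% of the others) overlap a gene on the opposite strand, MCU, Abca3, tapas, CG10512, CG17075 and CG15771 among them. The strand setting of the counting is not stated, so reads in the shared stretches may not have been told apart from those of the overlapping gene. The length of these stretches was not computed.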

How the data were processed

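RNA-seq of 12 libraries of sorted type II neuroblasts was taken from 2 tables. By its values, the first holds raw counts for each gene symbol and each ERCC RNA, as the authors deposited them, and the second the authors' TPM. The submitters' processing notes name STAR 2.4.0i, HTSeq 0.6.1p1, Bowtie2 2.1.0, cutadapt 1.7.1 and CASAVA, with BDGP5, dm3 and mm10 as builds. Which step used which, the strand setting and the lengths behind the TPM were not stated there.

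CPM was computed over gene counts without the 92 ERCC rows. The test was edgeR 4.0.16 in R 4.3.3 (TMM, filterByExpr by age, robust quasi-likelihood fit, 8 residual degrees of freedom, two-sided), which kept 7978 genes with 99.85% of the counts. The SE of a log2FC is its size over the root of the F statistic. Alternatives were DESeq2 1.42.0 and its size factors, no filter, the 36 h and 50 h libraries alone, ERCC totals, limma 3.58.1 on log2(TPM + 1) of genes at 1 TPM or more in at least 3 libraries, a replicate block, sorted cells as a covariate, and leaving out each library. Left out of the TPM were 1 row without values and 129 rows that share a symbol, those of CG43737 among them. The fit was also run on counts simulated from its own mean levels and spread, which cannot show whether that spread suits these libraries. Libraries of one age differed by a chi-square per degree of freedom of 10.7 to 48.1, so none was counted as a copy.

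Members and lists were chosen with earlier results of these data known. Named members are the 10 highest at 24 h, the 8 of largest ratio, the 10 called ones of smallest adjusted p, up to 6 with the highest ratio of 36 h to 24 h above 1, those nearest the thresholds, neighbours, and those with a name or telling synonym. Other called members are named because of their calls, and CG5273, CG3630, CG14506 and CG6428 were named after their values were seen. Protein and promoter features were not analysed here, and 1 member that this rule names is not reported here.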

Additional observations from a re-analysis of the deposited data

How the results depend on the processing

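The count of members called lower between 36 and 50 h was 23, and it was 22 to 31 with DESeq2 or its size factors, without the filter, with 2 ages alone, with sorted cells as a covariate or with the replicate block. It was 12 on the TPM, 1 with ERCC totals and 15 to 26 when a library was left out, the 15 without 50 h replicate 1. With the replicate block 24 were called, 22 of the 23 among them. Deviations of same-numbered libraries at 36 and 50 h correlated at 0.066 to 0.23, and those of differently numbered ones at -0.20 to -0.0005. This did not hold with the 84 h libraries. Replicate 2 of 36 h and replicate 2 of 84 h correlated at -0.16, and replicate 3 of 36 h and replicate 2 of 84 h at 0.24. The labels tie the numbers to nothing shared, so the main fit did not take them to pair the libraries. Whether same-numbered libraries share a batch was not tested. Members called higher were 0 in each of these settings. The count over all genes was 339, and 536 without the filter, 578 with 2 ages alone, 148 with ERCC totals, 530 with DESeq2, 447 with the replicate block and 157 to 448 over the left-out libraries, with 157 lacking 36 h replicate 2 and 186, 211 and 199 lacking 50 h replicate 1, 2 and 3. The members' median log2FC of -0.97 became -0.78 on the TPM and 0.021 with ERCC totals, and ranged from -1.02 to -0.82 over the left-out libraries. The number of members was 70, and 144 with TMM-adjusted sizes, 9 with ERCC totals, 122 on the TPM, 27 at a fold of at least 3 and 68 to 89 over the left-out libraries, which shared 54 (without 24 h replicate 2) to 65 of the 70.

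With ERCC totals the median of all genes moved up by 0.88, and 33 of 70 members lay below 0, against 67 with TMM. Among the members followed singly the log2FC between 36 and 50 h turned above 0 for CG10512 (0.029), CG13248 (0.84), CG14234 (0.013), CG14353 (0.60), CG14408 (0.68), CG15098 (0.55), CG1718 (0.22), CG17765 (0.77), CG2950 (0.21), CG30497 (0.29), CG3216 (0.43), CG43066 (0.23), CG43427 (0.24), CG5382 (0.85), CG6490 (0.48), CG6865 (0.36), CG8920 (0.74) and CG9821 (0.41). CG13248 was at 0.18 with sorted cells as a covariate and ran from -0.63 to 0.068 over the left-out libraries (above 0 lacking 36 h replicate 3), CG14353 from -0.49 to 0.063 (above 0 lacking 50 h replicate 1), and CG5382 from -0.49 to 0.25, with 0.19 and 0.074 lacking 50 h replicate 1 and 2 and 0.044 on the TPM. The cause of the changes under the ERCC totals, the left-out libraries, the covariate and the TPM was not tested. ERCC counts were 6930 in 50 h replicate 1 and 16505 and 17865 in the other 50 h libraries. Depth limits members of few counts, such as CG42566.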

Other observations

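How closely each member followed Imp was described by Pearson's r of log2(CPM + 0.5) over the 12 libraries, which share depth and include the 24 h and 84 h values that chose the members, so no p is given. The r ranged from 0.21 to 0.99 with a median of 0.73. It was highest for plum (0.99), followed by CG43066 (0.97) and CG10512 (0.96), whose largest fall came between 50 and 84 h. It was lowest for CG14506 (0.21), CG6428 (0.22), CG3548 (0.29) and Rsph3 (0.32).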
